A study of Sorghum bicolor with 12 samples.

Results

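Transcripts that differed between leaves of watered Sorghum bicolor seedlings (variety R16) exposed to 50°C for 3 h, called Heat, and leaves of watered seedlings held at 28°C for 3 h, called Control, are described here across the whole array. A transcript was included when all spots that report it were well above background on each of the 3 Heat arrays or each of the 3 Control arrays, and 22136 of the 28587 transcripts on the array met this rule. Of these, 20186 were detected in both groups, 1004 in Heat alone and 946 in Control alone, and 6451 transcripts met the rule in neither group. The series has 12 one-colour arrays, 3 per group. The other 2 groups were without water for 3 days before the same 50°C treatment (Combined) or the same 28°C treatment (Drought). Seedlings were 14 days old when the watering treatments began. The 3 h incubations were in the dark for every group, and tissue of the 3 youngest leaves was pooled within each treatment set, so an array stands for pooled leaves and not for a single plant. The experiment was run in triplicate. The Heat and Control arrays with the same replicate number lay on the same slide.

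When leaf cells are heated, proteins unfold, and heat shock factors (HSFs) bind the promoters of heat shock protein genes. The small heat shock proteins hold unfolded proteins in a soluble state, HSP70 with J-domain partners and the HSP60 chaperonins refold them, HSP90 handles signalling proteins and HSP100 (ClpB) pulls proteins out of aggregates. Leaves also adjust scavenging of reactive oxygen, water balance and, in a C4 grass such as sorghum, the enzymes that concentrate CO2 around Rubisco.

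Values are log2 signals relative to the 75th percentile of the array, so 0 is a bright spot and not an absent one, and differences are Heat minus Control. The value after ± is the SD over the 3 same-numbered pairs (n = 3). Adjusted p-values are Benjamini-Hochberg values over the 22136 transcripts from limma, fitted with replicate number as a blocking term, and a call needs an adjusted p under 0.05 with a log2 difference beyond 1. In bulk leaf RNA, fewer cells of a type and less RNA per cell cannot be told apart. The array files number transcripts without naming genes. Sb identifiers and annotations, which carry the names of Arabidopsis genes, could be joined to 2861 of the 22136 transcripts. Of these, 2070 came from the study's lists of heat-responsive transcripts, which were picked by fold on these same arrays, and 791 from its drought lists alone. The main heat list was available in shortened form, with 1998 rows, so many heat-responsive transcripts of the study have no name here. Of the calls among heat-list transcripts 65.1% were rises, against 49.7% of all limma calls, so the named part leans to rises. The counts per gene group below therefore describe named transcripts and are not independent evidence of a group's response. Where so stated, they cover those detected in both groups, since detection in a single group largely fixes the direction of a change. Over all 2219 named transcripts detected in both groups, 51.1% were called higher in Heat and 29.6% lower.

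Median signal per array was 365 to 434 in Heat and 413 to 542 in Control, and 76.7% to 84.4% of spots in Heat and 76.7% to 84.1% in Control were well above background. The median SD between arrays of a group was 0.26 in Heat and 0.25 in Control. No spot carried the scanner's saturation flag, but the median pixel of 27 to 43 spots on Heat arrays and 24 to 32 spots on Control arrays stood at the ceiling of the scan. Of the transcripts studied, 11 were at the ceiling on all 3 Heat arrays. Of these, 4 were also there on all 3 Control arrays and 5 on no Control array, and those 5 are all small heat shock proteins whose rises are given as lower bounds. Of the leaf genes that could be joined, probes were bright for the Rubisco small subunit RBCS1A (Sb05g003480.1), at a mean of 3.26 in Heat and 4.33 in Control, and for the light-harvesting protein LHCB6 (Sb06g032690.1), at 1.44 in Heat and 2.04 in Control. Others had lower Control means: -2.36 for Rubisco activase RCA, -2.34 for the carboxylase PPC1 and -5.36 for PPDK. The carbonic anhydrases Sb03g029180.1 and Sb03g029200.1 stood at 1.83 and -5.89 in Control. NADP-ME1 (Sb03g034280.1) was well above background on 1 of 3 arrays in each group and so was not among the transcripts studied. Of the genes of other tissues that could be joined, the seed markers OLEO1 and PAP85 were well above background on 2 of 3 Heat arrays and on 0 Control arrays and so were not among the transcripts studied, while GEX1 (Sb02g025930.1, gametes) rose by 7.27. Of the guard cell channel KAT1, Sb04g008780.1 was called higher but not without replicate 1 (2.69, limma adjusted p = 0.056), and Sb03g034980.1 was detected in Heat alone, which fixes its direction. The part of these cell types in the other changes was not tested.

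Heat moved nearly as many transcripts up as down, but the largest changes were mostly rises. Limma called 7227 transcripts (32.6% of those tested), 3592 higher in Heat (16.2%) and 3635 lower (16.4%), and the median difference over all 22136 was -0.10. Among transcripts detected in both groups, 2878 rose, with a median of 1.73, and 3154 fell, with a median of -1.49. Beyond a log2 difference of 4 there were 221 rises and 16 falls, and beyond 6 there were 65 rises and no fall. The study's own rule, a change past 2-fold in the same direction in each of the 3 pairs, was met by 2742 rises (12.4%) and 2428 falls (11% of those tested), of which 2708 and 2383 were also limma calls. All 3 pairs moved the same way for 3578 transcripts called higher and for 3610 called lower, which a call made on these same pairs largely fixes. The balance of rises and falls depended on the background correction: with normexp there were 5588 rises and 1621 falls. In that setting the median difference was 1.11 in the dimmest 25% of transcripts, against -0.05 without normexp, and -0.09 in the brightest 25%.

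**Figure D1:**
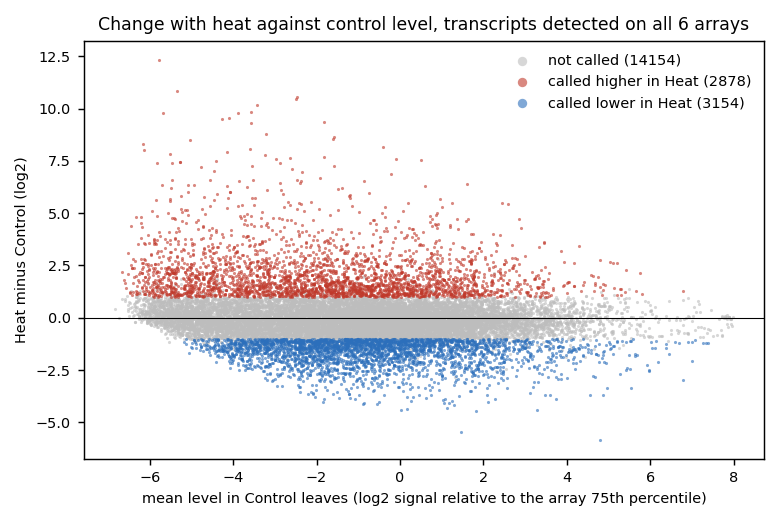
Mean level in Control leaves (x axis, log2 signal relative to the array's 75th percentile) against the Heat minus Control difference (y axis, log2), one point per transcript detected on all 6 arrays. The 2878 red points were called higher in Heat and the 3154 blue points lower, and rises reach 12.33 while falls end at -5.82.

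Of the 1004 transcripts detected in Heat alone, limma called 714 higher and 0 lower. In Control leaves 296 of them were above background on no array, 323 on 1 array and 385 on 2 arrays. Their direction follows from how they were chosen, so it is not a finding. The Heat level was at least 2-fold above the Control bound for 665 of them. Of the 946 detected in Control alone, 481 were called lower, and for 474 the Control level was at least 2-fold above the bound in Heat.

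The small heat shock proteins showed the greatest rises of any group. Of the 23 detected in both groups, 22 rose and 1 fell, and their median was 7.52, against -0.11 over all transcripts detected in both groups. The median member, Sb03g006890.1, was at the ceiling on all 3 Heat arrays, so this median is a lower bound. HSP22 (Sb06g017850.1), an endomembrane-type small heat shock protein in Arabidopsis, stood at 6.50, 6.17 and 6.96 in Heat, against -6.66, -5.73 and -4.97 in Control. The groups were far apart and it had the largest difference among transcripts detected on all 6 arrays, 12.33 ± 0.72 (limma adjusted p = 3.03e-06). The mitochondrial HSP23.5-M (Sb04g027330.1) stood at 7.23, 7.39 and 7.84 in Heat, against -0.77, 0.14 and 0.34 in Control, a rise of 7.58 ± 0.38 (limma adjusted p = 1.54e-06). It was at the ceiling on 1 Heat array, so its rise may be understated. The chloroplast HSP21 (Sb07g028370.1) stood at 6.59, 6.81 and 7.45 in Heat, against -2.89, -2.06 and 0.11 in Control. Its Control array 3 was well above the other Control arrays, and the groups still did not overlap (8.56 ± 1.10, limma adjusted p = 7.24e-06). The exception was an HSP26.5-P transcript (Sb02g034760.1), known here only through the drought lists, at -1.96, -2.61 and -2.61 in Heat, against -1.61, -0.24 and -0.32 in Control. The groups did not overlap, and the fall of 1.67 on the log2 scale (± 1.15, limma adjusted p = 0.0375) was not called without any one of the 3 replicates (adjusted p from 0.0671 to 0.12). Another transcript annotated HSP26.5-P, Sb04g006890.1, rose by 4.85 ± 0.44 (limma adjusted p = 1.9e-05).

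Many of these genes lie next to each other. The 5 transcripts annotated as HSP18.2, a cytosolic class I protein, that carry close numbers on chromosome 3 are Sb03g006870.1, Sb03g006880.1, Sb03g006890.1, Sb03g006900.1 and Sb03g006920.1, and Sb01g039990.1 and Sb01g040000.1 on chromosome 1 lie close to HSP17.4 (Sb01g040030.1). Of these 8 transcripts, 5 stood at the ceiling on all 3 Heat arrays, Sb03g006880.1 on 1 Heat array, and Sb03g006900.1 and Sb03g006920.1 on none. Sb01g039990.1 was at 8.10, 8.15 and 7.99 in Heat, against -3.46, -2.16 and -1.81 in Control, and was at least 1506-fold higher in Heat. Sb03g006870.1 was at 8.12, 7.99 and 7.95 in Heat, against 1.77, 2.84 and 3.13 in Control, and was at least 43.4-fold higher. Both were at the ceiling on all 3 Heat arrays, so their order in Heat is unknown. Sb03g006900.1 stayed below the ceiling, at 5.26, 5.29 and 6.24 in Heat, against -3.30, -3.59 and -2.72 in Control (8.80 ± 0.21, limma adjusted p = 1.65e-07). Probes for such closely related genes may bind each other's transcripts, so a value for one HSP18.2 gene may hold signal of its neighbours. The same holds for 4 mitochondrial small heat shock proteins that are neighbours on chromosome 10 (Sb10g007570.1 to Sb10g007600.1), which rose by 3.65 to 5.89.

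All 29 named HSP100, HSP90, HSP70 and HSP60 transcripts detected in both groups rose, with a median of 3.40, and a further 7 were detected in Heat alone. HSP101 (Sb03g034390.1), the cytosolic disaggregase, stood at 3.85, 3.82 and 5.55 in Heat, against -5.50, -8.05 and -7.62 in Control, where it was above background on 1 of 3 arrays, a rise of at least 1776-fold (limma adjusted p = 1.03e-05). A second HSP101 (Sb09g025900.1) stood at 6.21, 6.28 and 7.76 in Heat, against 0.67, 1.51 and 1.58 in Control (5.50 ± 0.71, limma adjusted p = 1.05e-05). The organellar disaggregases CLPB3 (Sb01g032210.1) and CLPB4 (Sb04g005570.1) rose by 4.34 ± 0.39 and 3.99 ± 0.61. Among HSP90 genes, the inducible HSP90.1 (Sb06g000660.1) stood at 6.43, 6.49 and 7.20 in Heat, against -4.99, -3.37 and -1.95 in Control (10.15 ± 1.16, limma adjusted p = 4.62e-06). The 3 HSP81-2 transcripts, the form present in unstressed cells, rose by 3.20 to 3.63.

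Rises within the HSP70 family varied in size. HSP70T-2 (Sb01g042680.1) stood at 2.78, 2.95 and 3.61 in Heat, against -3.82, -2.53 and -2.06 in Control (5.92 ± 0.59). HSP70 Sb01g039530.1 stood at 7.91, 7.93 and 7.89 in Heat, against 5.60, 5.89 and 5.76 in Control (2.16 ± 0.14), with 2 Heat arrays at the ceiling, so its rise may be understated. The mitochondrial HSP70s MTHSC70-2 (Sb01g017050.1 and Sb02g028570.1) rose by 3.40 ± 0.56 and 2.60 ± 0.14. Endoplasmic reticulum chaperones rose as well: BIP2 (Sb04g001140.1), an HSP70 of that compartment, by 4.53 ± 0.56 and SHEPHERD (Sb10g030240.1), its HSP90, by 3.02 ± 0.23. The chaperonins HSP60 (Sb01g020010.1, mitochondrial) and CPN60A (Sb01g000380.1, chloroplast) rose by 4.18 ± 0.18 and 2.97 ± 0.16. The rise of HSC70-3 (Sb03g022960.1), detected in Heat alone and at least 4.22-fold higher (limma adjusted p = 0.019), was not called without replicate 1 (adjusted p = 0.08) or replicate 2 (adjusted p = 0.118).

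Of 24 J-domain proteins and other co-chaperones detected in both groups, 20 rose, none was called lower and 4 did not pass the test. A FK506-binding peptidyl-prolyl isomerase (Sb10g012970.1), of a family whose larger plant members bind HSP90, stood at 4.99, 5.34 and 6.17 in Heat, against -5.62, -5.63 and -4.77 in Control. The pairs moved almost identically, by 10.84 ± 0.20 (limma adjusted p = 1.65e-07). BAG5 (Sb05g018030.1), a mitochondrial HSP70 regulator in Arabidopsis, rose by 7.23 ± 1.48, the stress-inducible protein Sb06g023830.1 by 5.94 ± 0.56 and the isomerase ROF1 (Sb07g026560.1) by 4.02. CHIP (Sb07g001340.1), the ubiquitin ligase that takes HSP70 clients to degradation, rose by 2.15. One J-domain transcript had a large difference in the other direction that did not pass the test: Sb07g022220.1 was at -0.06, -0.10 and -0.48 in Heat, against 2.69, 1.59 and 2.64 in Control, with no overlap (-2.52 ± 0.74, limma adjusted p = 0.0731). It was called lower under normexp (adjusted p = 0.0424), under spike-in scaling (adjusted p = 0.0401) and without replicate 3 (adjusted p = 0.0243).

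All 11 named heat shock factors and MBF1 transcripts were called higher. MBF1C (Sb10g023010.1), a coactivator needed for thermotolerance in Arabidopsis, stood at 5.44, 5.58 and 6.50 in Heat, against -2.30, -1.93 and -1.25 in Control (7.67 ± 0.14, limma adjusted p = 9.19e-07). HSFA2 (Sb10g022340.1), which sustains the response during long heat, stood at 6.08, 6.53 and 7.26 in Heat, against 0.44, 1.58 and 0.87 in Control (5.66 ± 0.72, limma adjusted p = 0.000125). HSFA6B (Sb01g046350.1) stood at 1.23, 1.60 and 3.69 in Heat, against -5.82, -4.70 and -5.30 in Control (7.45 ± 1.39), with Heat array 3 apart from the other Heat arrays. HSF1 (Sb01g042370.1), of a factor class that starts the response in Arabidopsis, was even within each group, at 1.93, 2.0 and 1.99 in Heat, against -1.08, -1.0 and -0.99 in Control (3.00 ± 0.01). The class B factors, many of which act as repressors, rose too: HSFB2A (Sb06g025710.1) by 4.55 ± 0.89 and the 2 HSFB2B transcripts (Sb02g030490.1 and Sb07g025120.1) by 3.11 ± 0.67 and 2.82 ± 0.44. HSFA3 (Sb04g021490.1) rose by 2.03 ± 0.32 and lost its call without replicate 1 (adjusted p = 0.12) or replicate 2 (adjusted p = 0.0587).

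**Figure D2:**
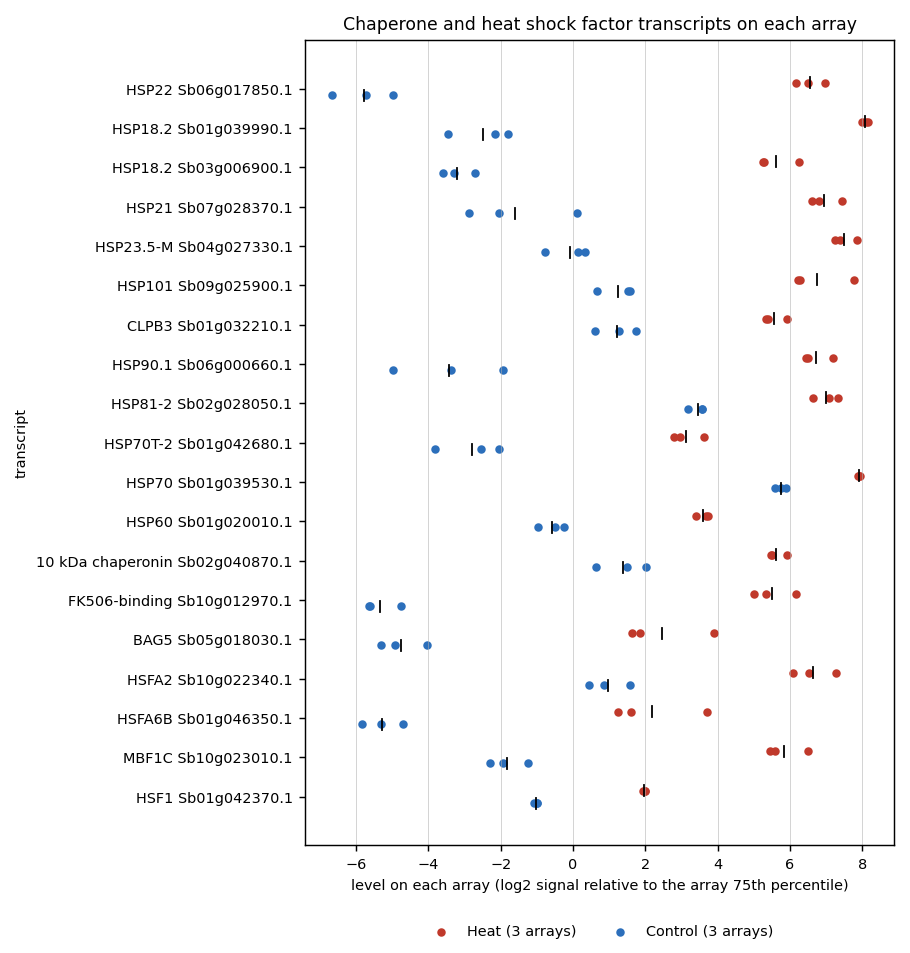
Level on each array (x axis, log2 signal relative to the array's 75th percentile) for 19 chaperone and heat shock factor transcripts, with the 3 Heat arrays in red above the 3 Control arrays in blue and black ticks at the group means. Heat and Control do not overlap in any row, HSP18.2 Sb01g039990.1 stands at the scanner's ceiling in Heat, and the HSP70 and HSP81-2 rows start high in Control.

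Of 32 reactive oxygen scavengers detected in both groups, 22 were called higher (68.8%) and 5 lower (15.6%). APX3 (Sb06g001970.1), an ascorbate peroxidase, stood at 2.98, 2.74 and 3.50 in Heat, against -4.63, -4.39 and -4.19 in Control (7.48 ± 0.31, limma adjusted p = 9.19e-07). The 3 neighbouring alternative oxidase genes on chromosome 6, whose mitochondrial products let electrons bypass the cytochrome pathway, rose together, with AOX1B (Sb06g027420.1) at 4.78, 4.59 and 4.64 in Heat, against -1.87, -1.57 and -1.05 in Control (6.17 ± 0.48). Its neighbours Sb06g027410.1 and Sb06g027430.1 rose by 4.69 and 5.39, and these probes too may share transcripts. The plastid thioredoxins ACHT4 (Sb02g043280.1, -2.68 ± 0.36) and WCRKC1 (Sb04g034680.1, -2.71 ± 0.05) and the glutathione transferase GSTZ2 (Sb05g007005.1, -2.99 ± 0.18) were called lower. Of 5 named universal stress proteins, 2 rose. Sb04g034630.1 was at 3.53, 3.87 and 4.45 in Heat, against -7.39, -6.32 and -6.01 in Control and was at least 1468-fold higher, while Sb09g005140.1 rose by 3.72 ± 0.53.

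Of 11 photosynthesis genes detected in both groups, 8 rose and 3 did not pass the test. Most of these names came from the heat lists, while of 5 members known through the drought lists alone 1 rose and 4 did not pass. Rubisco activase RCA (Sb05g027880.1), which frees Rubisco of bound sugar phosphates and is heat-labile, stood at 4.31, 4.46 and 5.11 in Heat, against -2.68, -3.23 and -1.16 in Control (6.98 ± 0.71, limma adjusted p = 1.02e-05). Genes annotated to the first CO2 fixation steps rose, among them the phosphoenolpyruvate carboxylase PPC1 (Sb02g021090.1) by 4.09 ± 0.40 and 2 carbonic anhydrases (Sb03g029200.1 and Sb03g029180.1) by 3.61 ± 0.80 and 2.27 ± 0.63. RCA and PPC1 stood at means of -2.36 and -2.34 in Control, where RBCS1A stood at 4.33. The annotations do not tell whether PPC1, or the PPDK below, is the form used in C4 photosynthesis. Nor do they tell whether this RCA transcript is the main activase of unstressed leaves. The photosystem II subunit PSBR (Sb02g002830.1) was bright in both groups and rose by 2.60 ± 0.33. The Rubisco small subunit RBCS1A (Sb05g003480.1), known through the drought lists, was at 2.55, 3.70 and 3.54 in Heat, against 3.56, 4.59 and 4.83 in Control (-1.07 ± 0.20, limma adjusted p = 0.0969). Its groups overlapped in range, although each Heat array was below the Control array of its slide, and it was called lower under quantile scaling (-1.41, adjusted p = 0.039). LHCB6 (Sb06g032690.1) was at 1.29, 1.68 and 1.34 in Heat, against 1.12, 2.71 and 2.28 in Control (-0.60 ± 0.67, limma adjusted p = 0.441). A dim PPDK transcript (Sb01g031660.1), for the enzyme that regenerates the CO2 acceptor, was above background on no Heat array and all 3 Control arrays and was at least 2.98-fold lower in Heat (limma adjusted p = 0.00993). That call was lost without replicate 1 (adjusted p = 0.113) or replicate 2 (adjusted p = 0.053), and under normexp the difference had the opposite sign (0.86).

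All 7 named genes of galactinol, raffinose, trehalose and proline metabolism detected in both groups rose, among them SIP1 (Sb03g004540.1) and the SIP2 transcripts Sb02g006320.1 and Sb01g004130.1, which are annotated as hydrolases, SIP1 also as a galactosyltransferase. Galactinol synthase GolS1 (Sb01g037090.1), the entry to raffinose sugars and a known target of heat shock factors in Arabidopsis, stood at 6.54, 6.85 and 7.25 in Heat, against 1.37, -0.10 and 0.49 in Control (6.29 ± 0.97, limma adjusted p = 5.09e-05). The smallest rises, of a trehalose-6-phosphate phosphatase (Sb02g039820.1, 1.03, detected in Heat alone) and the proline synthesis enzyme P5CS2 (Sb03g039820.1, 1.24 ± 0.32), were known through the drought lists. Both lost their calls without the replicate block (adjusted p = 0.117 and 0.142), without replicate 1 (0.158 and 0.12), without replicate 3 and under spike-in scaling. Of 12 LEA proteins and dehydrins detected in both groups, which protect dehydrating cells, 6 rose and 6 did not pass the test, with Sb02g028010.1 rising by 4.01 ± 1.07.

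Of 16 genes of abscisic acid (ABA), the hormone that closes stomata, detected in both groups, 10 were called higher (62.5%) and 2 lower (12.5%), and a further 5 were detected in Heat alone. Of 9 members known through the drought lists alone, 5 were called higher and 4 did not pass the test. Of those rises, Sb01g013520.1, Sb03g030050.1 and Sb06g001720.1 were detected in Heat alone, which largely fixes their direction. Only Sb09g026860.1 and Sb09g026865.1 were detected in both groups. The ABA-degrading hydroxylases moved in opposite directions. CYP707A4 (Sb02g026600.1) stood at 4.78, 4.40 and 4.60 in Heat, against -3.11, -2.80 and -3.04 in Control (7.57 ± 0.35, limma adjusted p = 6.59e-05), whereas CYP707A1 (Sb04g030660.1) stood at -5.82, -5.94 and -5.40 in Heat, against -3.44, -4.32 and -2.97 in Control (-2.14 ± 0.45, limma adjusted p = 0.000246). The CYP707A1 fall was not called under normexp (adjusted p = 0.874). Type 2C protein phosphatases, some of which repress ABA signalling, also went both ways, with Sb04g031580.1 rising by 5.90 ± 0.39 and Sb01g043430.1 changing by -3.80 ± 0.38. The ABA synthesis enzyme NCED3 (Sb01g013520.1) was detected in Heat alone and was at least 5.18-fold higher.

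Among 21 aquaporins and ion carriers detected in both groups, 14 rose (66.7%) and 6 were called lower (28.6%). Of the calls of this group from the heat lists 65% were rises, against 65.1% over all transcripts of those lists. All 8 plasma membrane aquaporins annotated PIP2B rose, and the one with the largest rise, Sb04g026650.1, was at 4.54, 4.76 and 5.33 in Heat, against 0.58, 1.86 and 2.0 in Control (3.40 ± 0.54). Members of the group with close numbers, from Sb02g010760.1 to Sb02g010830.1, rose by 1.58 to 2.08. Probes for such neighbours may share transcripts, so these rises may not be separate. The vacuolar aquaporin TIP4;1 (Sb09g007940.1) was at -1.93, -1.71 and -3.23 in Heat, against 1.33, 1.84 and 1.11 in Control (-3.72 ± 0.56, limma adjusted p = 3.05e-05). KAT1 (Sb03g034980.1), a potassium inflow channel of guard cells, was not detected on any Control array and rose at least 28.1-fold.

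In the cell wall group 12 of 23 transcripts detected in both groups rose (52.2%) and 6 were called lower (26.1%), close to the shares over all named transcripts. A pectinesterase (Sb06g030310.1), which de-esterifies pectin, stood at 3.36, 2.46 and 4.55 in Heat, against -6.39, -5.26 and -3.47 in Control (8.49 ± 1.10, limma adjusted p = 1.6e-05). The 3 neighbouring genes for polygalacturonase-inhibiting proteins (PGIP1), which block pectin-cutting enzymes of fungi, went the other way. Their probes too may share transcripts. Sb09g000440.1 stood at 1.49, 2.15 and 1.25 in Heat, against 4.62, 5.06 and 5.21 in Control (-3.33 ± 0.55, limma adjusted p = 0.00329), and Sb09g000430.1 and Sb09g000450.1 changed by -3.48 and -2.52. In the jasmonate and ethylene group 8 of 15 detected in both groups rose (53.3%) and 3 were called lower (20%). OPR2 (Sb10g007330.1), a 12-oxophytodienoate reductase, was at 4.02, 4.53 and 5.04 in Heat, against -3.0, -3.76 and -1.86 in Control (7.41 ± 0.77). The jasmonate repressor JAZ1 (Sb01g023431.1) rose by 5.41 ± 0.35, while JAZ10 (Sb03g044485.1) was at -5.81, -5.37 and -6.35 in Heat, against -2.49, -1.45 and -2.17 in Control (-3.81 ± 0.44, limma adjusted p = 0.0214). The JAZ10 call was lost without the replicate block (adjusted p = 0.0713), under normexp (adjusted p = 0.234) and without replicate 1 (adjusted p = 0.118) or replicate 2 (adjusted p = 0.0542).

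Among the groups of named transcripts, receptor kinases and disease resistance proteins were the one large group that mostly fell. Of 76 detected in both groups, 59 were called lower (77.6%), 10 higher (13.2%) and 7 did not pass the test, with a median of -2.26. A further 29 were detected in Control alone and 11 in Heat alone. The falls took in 9 of 10 disease resistance proteins of the NBS classes and 8 of 8 RPM1-like transcripts detected in both groups, both intracellular immune receptors, with lectin, leucine-rich repeat, cysteine-rich and wall-associated kinases. An S-locus lectin kinase (Sb09g001750.1) stood at -4.84, -5.19 and -4.88 in Heat, against -0.96, -1.02 and -0.64 in Control (-4.09 ± 0.19, limma adjusted p = 0.000123). A leucine-rich repeat kinase (Sb10g024150.1) stood at -5.97, -5.66 and -6.25 in Heat, against -2.18, -1.92 and -3.11 in Control (-3.56 ± 0.37, limma adjusted p = 0.00272), a call that was lost under normexp (adjusted p = 0.114). The groups were far apart in both. An RPM1-like transcript detected in Heat alone, Sb02g038425.1, was dim, at -4.14, -4.08 and -4.49 in Heat, was not detected on any Control array, and rose at least 7.03-fold. A thaumatin-like receptor kinase, PR5K (Sb03g008160.1), rose by 3.51 ± 0.51.

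Transcription factors of the WRKY, NAC, MYB, AP2/ERF and bZIP families went both ways, with 30 of 58 detected in both groups higher (51.7%) and 16 lower (27.6%), close to the shares over all named transcripts. RAP2.6 (Sb06g016710.1), an AP2/ERF factor, was detected in Heat alone and was at least 293-fold higher. A DREB1A transcript (Sb07g025210.1), for a factor that binds dehydration and cold response elements, stood at 0.97, 1.72 and 1.56 in Heat, against -4.57, -5.91 and -4.34 in Control (6.36 ± 1.11, limma adjusted p = 0.000297). RAP2.12 (Sb01g045060.1), an oxygen-sensing factor in Arabidopsis, stood at 1.58, 0.55 and 0.46 in Heat, against 4.92, 4.39 and 4.34 in Control (-3.69 ± 0.30, limma adjusted p = 0.00097). Of 53 ubiquitin ligases and proteases detected in both groups, 28 rose (52.8%) and 17 were called lower (32.1%). The chloroplast protease FTSH6 (Sb10g008130.1) rose most, at 5.71, 5.20 and 6.28 in Heat, against -3.77, -4.63 and -2.32 in Control (9.31 ± 0.63). Of 91 cytochromes P450 and UDP glycosyl transferases detected in both groups, 56 rose (61.5%) and 17 were called lower (18.7%).

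**Figure D3:**
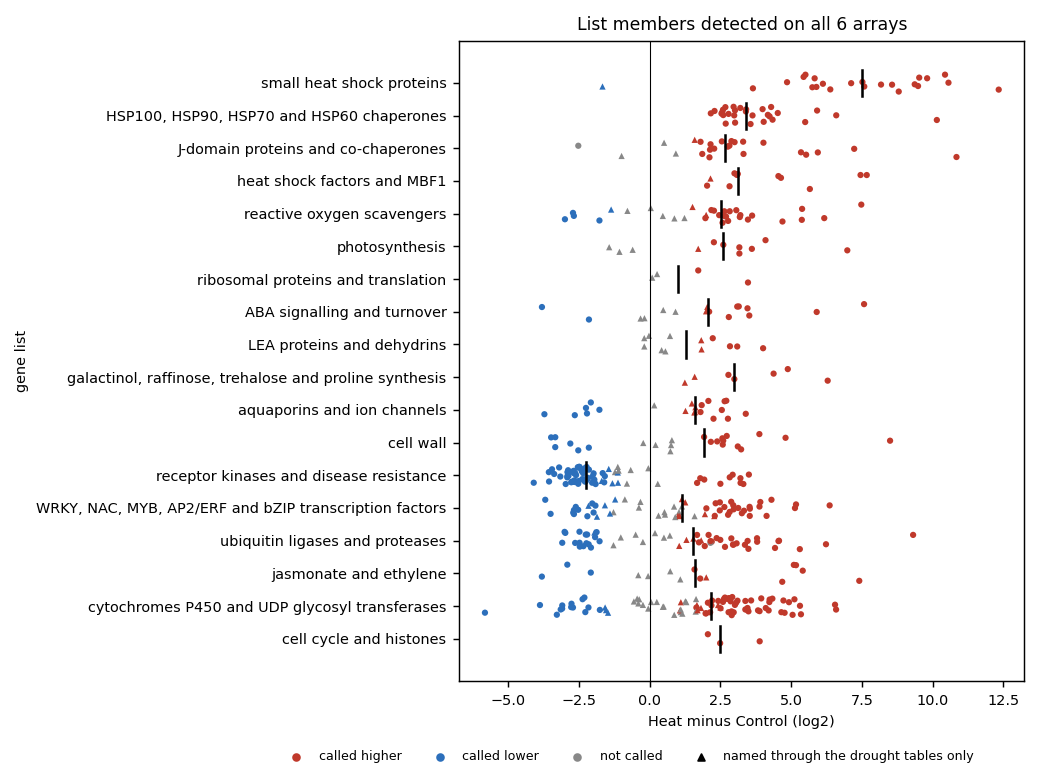
Heat minus Control difference (x axis, log2) of the named members of 18 gene groups (y axis) detected on all 6 arrays, coloured by limma call, with triangles for members named through the drought lists alone and black bars at the group medians. The small heat shock proteins lie furthest right (median 7.52, a lower bound) and the receptor kinases and disease resistance proteins are the one group with a median below 0 (-2.26).

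The deepest falls came from several families. UGT72B3 (Sb02g022260.1), a glucosyltransferase, stood at -0.40, -1.42 and -1.22 in Heat, against 5.31, 4.93 and 4.17 in Control. Its change of -5.82 ± 0.49 (limma adjusted p = 0.000351) was the deepest among transcripts detected on all 6 arrays. An auxin-responsive family transcript (Sb02g031700.1) stood at -3.66, -4.98 and -3.40 in Heat, against 2.29, 1.07 and 1.03 in Control (-5.48 ± 0.91). Membrane carriers also fell deeply: the peptide transporter PTR3 (Sb01g047690.1, -4.47 ± 0.34), the polyol transporter PLT5 (Sb02g037570.1, -4.43 ± 0.86) and the amino acid transporter AAT1 (Sb01g013690.1, -4.32 ± 0.60). AAT1 narrowly lost its call without replicate 1 (adjusted p = 0.0514). Malate synthase (Sb06g020720.1), an enzyme of the glyoxylate cycle, stood at -4.80, -4.33 and -5.95 in Heat, against 0.10, -1.95 and -0.83 in Control (-4.14 ± 1.52). Of those detected in Control alone, KCS12 (Sb01g033910.1), which elongates fatty acids for wax, and a nodulin MtN21 family transporter (Sb01g014050.1) were both at least 27.2-fold lower in Heat.

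**Figure D4:**
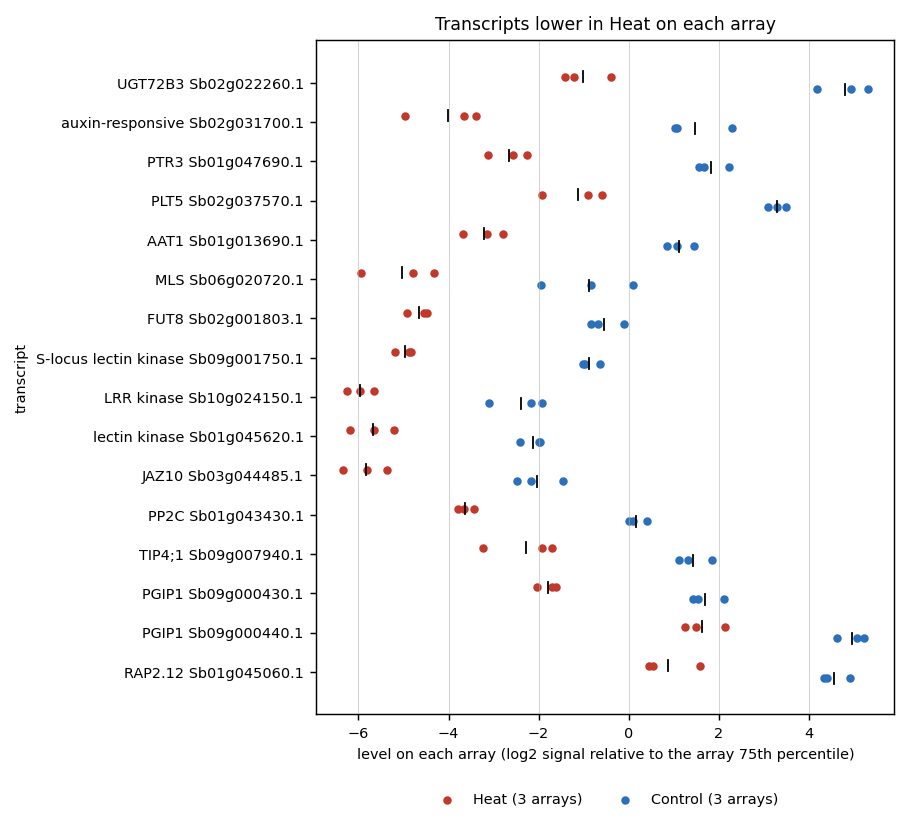
Level on each array (x axis, log2 signal relative to the array's 75th percentile) for 16 transcripts lower in Heat, with the 3 Heat arrays in red above the 3 Control arrays in blue and black ticks at the group means. The groups do not overlap in any row, and UGT72B3 shows the widest gap (-5.82).

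The same temperature step was also measured in droughted plants, as Combined minus Drought, on the other 6 arrays. Those arrays also entered the limma fit behind the Heat and Control calls, through the common residual spread and the slide block, so the shared calls below do not come from a separate fit. The median SD between arrays was 0.43 in Combined and 0.37 in Drought, against 0.26 in Heat and 0.25 in Control. Median signal per array was 222 to 298 in Combined and 448 to 512 in Drought. The part of these differences in the calls of the droughted step was not tested. Of the 3592 rises in Heat, 2288 (63.7%) were called higher in that step, in which 14.1% of all transcripts were, and 7 were called lower. Of the 3635 falls, 1813 (49.9%) were called lower, against 11.4% of all transcripts, and 2 higher. The sign was shared by 96.1% of the transcripts that rose and 96.4% of those that fell. In all, 4101 transcripts were called the same way in both steps, and 1660 were without replicate 1 and 2644 without replicate 2. The median change of the transcripts that rose was 1.47 in droughted and 1.87 in watered plants, and that of those that fell was -1.08 and -1.54. These transcripts were chosen by their change in watered plants, a choice that favours larger medians there. Its part in the difference was not tested. Whether the temperature step was weaker in droughted plants cannot be read from these medians.

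Chaperone calls were nearly all shared: 23 of 23 small heat shock proteins and 35 of 36 larger chaperones that rose in Heat were called higher there. HSP22 (Sb06g017850.1) stood at 8.35, 7.44 and 8.35 in Combined, against -4.23, -3.41 and -5.07 in Drought, a change of 12.28 that lies beside its 12.33 in watered plants (interaction adjusted p = 0.976). Of 15 ABA genes that rose in Heat, 6 were called higher in droughted plants, with medians of 0.86 there and 3.09 in watered plants. These genes too were chosen by their rise in watered plants. The shared calls were 5 of 9 in the galactinol to proline group and 4 of 7 among LEA proteins and dehydrins, beside 63.7% over all rises in Heat. No ABA gene passed the interaction test, and the difference between groups in shared calls was not tested. RAB18 (Sb09g018420.1), a dehydrin induced by ABA, stood at 3.26, 2.34 and 2.96 in Heat, against -0.94, -0.58 and 0.79 in Control (3.09 ± 1.02, limma adjusted p = 0.000271). In droughted plants it was at 8.67, 7.40 and 8.78 in Combined, against 7.88, 7.13 and 7.89 in Drought, a change of 0.65 (interaction adjusted p = 0.153). Of the receptor kinases and disease resistance proteins that fell in Heat, 53 of 86 were called lower in droughted plants, against 49.9% of all falls. Their medians were -1.40 there and -2.61 in watered plants, in which they were chosen.

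Limma found 3 transcripts (0.0136% of those tested) whose step differed between droughted and watered plants, and 3656 (16.5%) had an unadjusted p under 0.05. One of the 3 was SIP2 (Sb02g006320.1), annotated as a glycosyl hydrolase, which was at 1.07, 1.36 and 1.34 in Heat, against -1.63, -2.0 and -1.58 in Control. In droughted plants it was at 5.70, 4.96 and 5.98 in Combined, against 5.74, 5.37 and 6.32 in Drought, so each droughted array lay above every watered one and its step was -0.27, against 2.99 in watered plants (interaction adjusted p = 0.0395). There were 0 interaction calls without any one of the replicates or without the replicate block, 5 under quantile scaling and 281 under spike-in scaling. A similar gap that did not pass the test was seen for GolS1 (Sb01g037090.1), with steps of 2.63 in droughted and 6.29 in watered plants (interaction adjusted p = 0.141), for CYP707A4 (Sb02g026600.1), with 3.37 and 7.57 (adjusted p = 0.156), and for FTSH6 (Sb10g008130.1), with 4.96 and 9.31 (adjusted p = 0.0646).

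**Figure D5:**
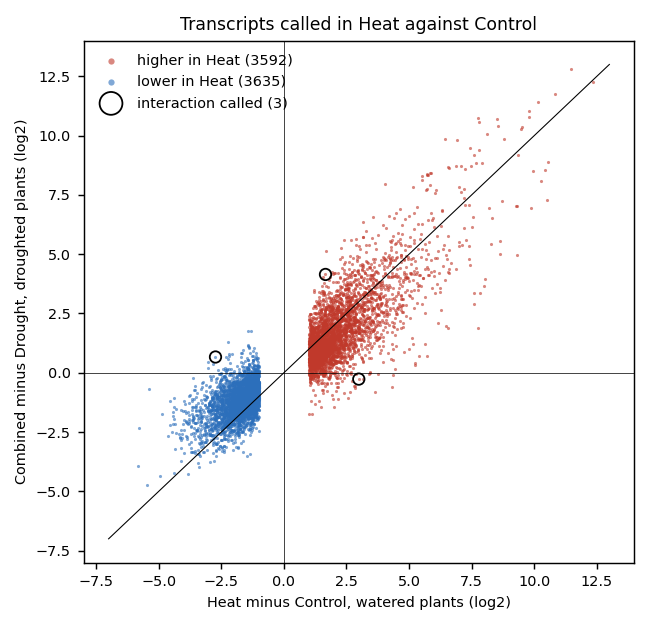
Heat minus Control (x axis, log2) against Combined minus Drought (y axis, log2) for the 7227 transcripts called in Heat against Control, red where higher and blue where lower in Heat, with the line of equal change and circles on the 3 interaction calls. Most points lie on the same side of 0 on both axes, 96.1% of the red and 96.4% of the blue.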

How the data were processed

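Leaf RNA of 12 samples was labelled with Cy3 and hybridised to Agilent arrays. The authors deposited spot intensity files from Feature Extraction 10.7.3.1 (background-corrected processed signal, median signal, flags) and a table of normalized log2 values, which equalled the processed signals after a 75th percentile shift and centring per probe (within 0.01 on the log2 scale for nearly all probes). Each array's 75th percentile was subtracted from its log2 processed signals, spots of a probe were averaged without outlier-flagged spots, and the brightest probe stood for each of 108 transcripts with several probes. At 32 transcripts 1 of the 6 values was missing and the fit dropped it. Limma 3.58.1 (R 4.3.3) fitted 4 group means with the replicate number as a block over 12 arrays and was tested on simulated data. Other steps used Python 3.11.15 and pandas 2.3.3. Deviations from group means of same-numbered Heat and Control arrays correlated at 0.24 to 0.46, and the array files place them on 1 slide, so the numbers pair the arrays.

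The p-values measure the spread between 3 pooled samples per group. Identifiers were joined by matching 3 fold changes per transcript in the study's supplementary lists to the deposited table within 2e-05 on the log2 scale, and no value of those lists is reported. RefSeq names could not be matched to the numbered transcripts, so no sequences are shown. "At least" folds set the brighter group's mean against the dimmer group's mean of, per array, the higher of its own signal and the lowest signal well above background. For probes at the scan ceiling they are the measured ratio. Named transcripts were the 10 largest differences each way past 2-fold in all pairs, the 5 largest bounds each way, 3 members at each end of every gene group, heat genes and heat shock neighbours the study names, and a few more chosen after their values were seen (such as ROF1, CHIP, NCED3 and RAP2.6). The members, gene groups and tests were chosen with earlier results of these data known, and false matches of the word searches that built the groups were removed after the matches were seen. Alternatives were no block, 6 arrays, normexp (offset 50, on the median signal, since mean signals are not used here), quantile and spike-in scaling, the deposited table, detection filters, slide position and left-out replicates or arrays.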

Additional observations from a re-analysis of the deposited data

Results flagged for a closer look

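In 3 transcripts, the limma interaction test found a temperature step that differed between droughted and watered plants. SIP2 (Sb02g006320.1) changed by -0.27 in droughted and 2.99 in watered plants, a difference of -3.26 (adjusted p = 0.0395). A transferase family transcript (Sb03g040180.1) changed by 0.67 in droughted and -2.73 in watered plants, a difference of 3.40 (adjusted p = 0.0395), and it was at -1.70, -1.48 and -0.63 in Heat, against 1.34, 0.85 and 2.21 in Control. A transcript without an identifier changed by 4.15 in droughted and 1.66 in watered plants, a difference of 2.48 (adjusted p = 0.0443).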

How the results depend on the processing

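The limma counts, 3592 rises and 3635 falls, stayed within 1.5 times of these values under every alternative except normexp (5588 rises, 1621 falls). Left-out replicates gave 2511 to 3675 rises and 2535 to 3609 falls, and left-out single arrays, added after the data were seen, 3308 to 3475 rises and 3193 to 3673 falls. Without the replicate block there were 3306 rises and 3281 falls. Spike-in scaling moved the median of all transcripts by -0.10 and gave 3243 rises and 4252 falls. The fold rule gave 1632 rises and 998 falls at 3-fold, and 947 falls under normexp. Of the transcripts called in both watered and droughted plants (4101), the count was 1660 to 5175 without 1 replicate. Interaction calls (3) numbered 0 without the replicate block, 5 under quantile scaling, 281 under spike-in scaling (added after the data were seen) and 0 to 0 without 1 replicate. Of 195 named transcripts, 170 stayed on the same side of the threshold in all 8 settings, and PPDK (Sb01g031660.1) reversed under normexp (0.86). The cause of these shifts was not tested. Transcripts dim in 1 group and probes at the scan ceiling have bounds only.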
